A study of Homo sapiens with 8 samples.

Results

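The genes described here are 10 regulators of the first gap phase of the cell cycle (G1) and of entry into S phase: the D-type cyclins CCND1 and CCND3, the E-type cyclins CCNE1 and CCNE2, the cyclin-dependent kinases CDK2, CDK4 and CDK6, the inhibitor CDKN1B (p27), the retinoblastoma gene RB1 and the transcription factor E2F1. They were chosen by symbol, and all 10 are among the 17076 genes listed. Their mRNA was measured by sequencing in Huh7, a human hepatocellular carcinoma line and the sole line used, in 4 groups of 2 libraries. The siUPF1 cells received an siRNA against UPF1 and the siControl cells a scrambled siRNA. The MYC-UPF1 cells received a vector for UPF1 with a MYC tag, and the MYC cells the vector with the tag alone. All were transient lipid transfections, so each library is the average of a mixed culture. UPF1 is an RNA helicase at the centre of nonsense-mediated mRNA decay (NMD), which degrades transcripts with premature stop codons and some normal mRNAs.

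In G1, mitogens raise D-type cyclins, which activate CDK4 and CDK6 to phosphorylate RB1. Phosphorylated RB1 releases E2F transcription factors, among them E2F1, which switch on CCNE1, CCNE2 and the enzymes of DNA replication. Cyclin E then activates CDK2, which completes RB1 phosphorylation, while p27 binds cyclin-CDK complexes and restrains them. Much of this circuit is set by protein synthesis, phosphorylation and ubiquitin-dependent degradation, none of which mRNA levels report. Amplification of the CCND1 locus and loss of RB1 function are known lesions of liver cancer.

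Levels are FPKM, counts of sequenced fragments scaled to transcript length and to library size, so they can be compared between genes. Fold changes are on the log2(FPKM + 1) scale, which understates the change of low genes, and come from limma fits over all genes with a mean of at least 0.5 FPKM in a comparison, 13535 for depletion and 13251 for overexpression. All 10 genes passed this minimum in both. Adjusted p-values are Benjamini-Hochberg values over all genes tested. UPF1 itself stood at 44.5 and 47.4 FPKM in siControl against 20.7 and 21.9 in siUPF1 (log2 fold change -1.07, limma adjusted p = 0.0308). It stood at 45.2 and 57.4 FPKM in MYC against 2835 and 2484 in MYC-UPF1 (log2 fold change 5.68, limma adjusted p = 8.91e-09), so both treatments had their labelled effect on the targeted mRNA. The sum of 12 hepatoma markers, led by AFP and ALB, ranged from 22440 to 25978 FPKM over the 8 libraries. Of markers of other cells, 3 of 6 fibroblast genes were listed and summed to 1.24 to 1.90 FPKM, 1 of 4 endothelial genes at 0.535 to 0.796 FPKM, and 2 of 5 leukocyte genes, CD68 and LYZ, at 163 to 231 FPKM. LYZ made up nearly all of the leukocyte sum, at 160 to 227 FPKM, with CD68 at 2.95 to 3.84 FPKM. PTPRC and CD3E were not listed. The 2 libraries of a group are not said to be separate cultures, so the spread between libraries behind every p-value may be technical. In limma that spread is not the gene's own alone, because each gene's variance is drawn towards a trend over all genes tested. An exact permutation test of 2 libraries against 2 cannot give a p below 0.333.

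CDK4 was the most abundant, with a median of 111.5 FPKM over the 8 libraries, at percentile 97.2 of all genes, followed by CCND1 at 68.6 FPKM. E2F1 followed with a median of 31.2 FPKM, CDK2 with 27.0 and CDKN1B with 18.0. For each of these 5 genes the range over libraries stayed clear of the next gene in the order. CCNE1 and RB1 had medians of 7.19 and 6.45 FPKM with overlapping ranges, and so did CDK6 and CCND3, at 3.58 and 2.82 FPKM. CCNE2 was the lowest, with a median of 1.02 FPKM and percentile 29.7. Thus CDK4 and CCND1 supplied nearly all of the CDK4/6 and D-type cyclin mRNA: CDK4 made up 96.0 to 97.6% of the CDK4 and CDK6 total, and CCND1 95.3 to 97.1% of the sum of CCND1 and CCND3. The third D-type cyclin gene, CCND2, was not listed.

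**Figure D1:**
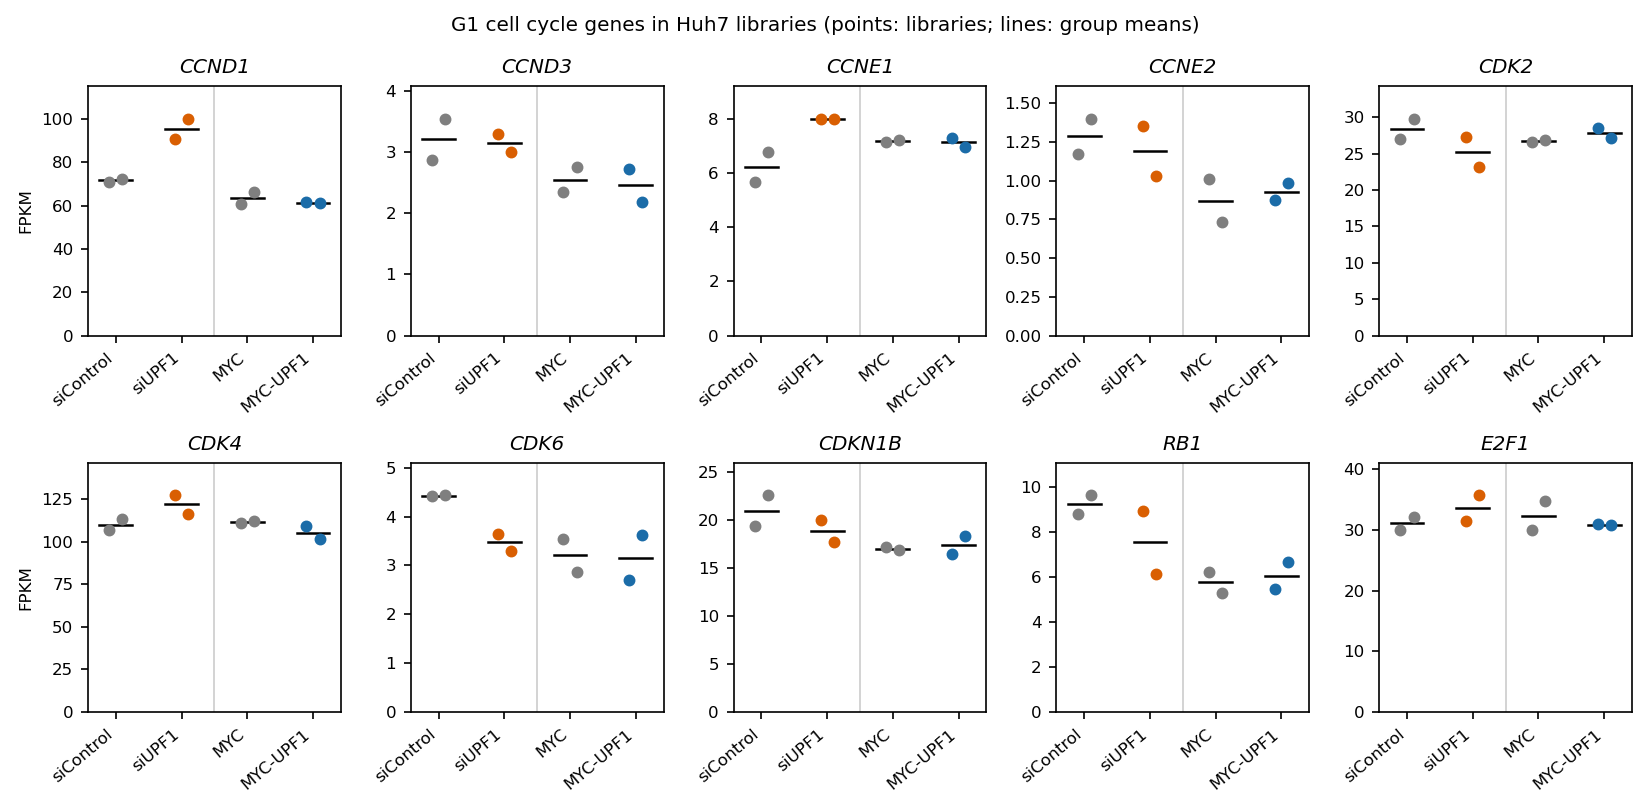
FPKM (y axis, from 0, scaled for each gene) of the 10 genes in the siControl, siUPF1, MYC and MYC-UPF1 libraries (x axis). Points are libraries and lines are means of 2 libraries. For CCND1, CCNE1 and CDK4 both siUPF1 points lie above both siControl points, and for CDK6 below them.

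After UPF1 depletion, CCND1 and CCNE1 were higher and CDK6 was lower at the unadjusted threshold, and none of the 10 passed the adjusted one. The 2 higher genes compare with 16% of all genes tested that were higher at an unadjusted p under 0.05, and the 1 lower gene with 5.51% that were lower. At an adjusted p under 0.05 the share of all genes was 0.0369%. The median log2 fold change of the 10 genes was -0.04, beside 0.06 for all genes tested. By position alone, both siUPF1 values were above both siControl values for 3 of the 10 genes (37.5% of all genes) and below both for 1 (18.5% of all genes). As counts, these shares are near those of all genes. In RNA of whole cultures, a different share of cells in a cell cycle phase and a different amount of mRNA per cell cannot be told apart.

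CCND1 (chr11:69455924-69469242, plus strand, GRCh37) encodes cyclin D1, the partner of CDK4 and CDK6. It measured 71.0 and 72.4 FPKM in siControl and 90.7 and 100.2 in siUPF1. Both depleted libraries lay well above both controls, which were close together. The mean rose 1.33-fold, or by 0.41 on the log2 scale with a standard error of 0.10 and a 95% interval of 0.18 to 0.63. The limma p was 0.00385 before and 0.101 after Benjamini-Hochberg adjustment. It was the one gene of the 10 that stayed past the unadjusted threshold in all 14 alternative analyses.

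CCND3 (chr6:41902672-42018095, minus strand), the other D-type cyclin listed, measured 2.88 and 3.55 FPKM in siControl and 3.30 and 3.01 in siUPF1. The siUPF1 values lay between the 2 control values. Its log2 fold change was -0.02, with an interval of -0.28 to 0.25 and a limma adjusted p of 0.946. It was -0.13 without siControl replicate 1 and 0.10 without siControl replicate 2.

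CCNE1 (chr19:30302898-30315219, plus strand) encodes cyclin E1, the activator of CDK2 and a textbook E2F target. It measured 5.67 and 6.78 FPKM in siControl and 8.01 and 7.99 in siUPF1. The 2 depleted libraries were nearly equal and above both controls, which were further apart. The mean rose 1.28-fold (log2 fold change 0.32, standard error 0.11, interval 0.07 to 0.57), with a limma p of 0.0198 before and 0.167 after adjustment. Without siControl replicate 1 the log2 fold change was 0.21 and the gene no longer passed the unadjusted threshold.

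CCNE2 (chr8:95891998-95908906, minus strand), its less abundant relative, measured 1.17 and 1.40 FPKM in siControl and 1.35 and 1.03 in siUPF1. The groups overlapped, and the log2 fold change was -0.06 (interval -0.34 to 0.21, limma adjusted p = 0.773). The CCNE1 share of the mRNA of both E-type cyclins was 82.9% in each siControl library and 85.5% and 88.5% in the siUPF1 libraries.

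Among the kinases, CDK6 (chr7:92234235-92465887, minus strand) was the one that was lower. It measured 4.42 and 4.44 FPKM in siControl and 3.65 and 3.30 in siUPF1, so both depleted libraries lay below a pair of nearly equal controls. Its log2 fold change was -0.28 (standard error 0.09, interval -0.50 to -0.05), with a limma p of 0.0219 before and 0.173 after adjustment. The call was lost without either siControl library and in a single fit of all 8 libraries, and it held in 10 of 13 alternatives.

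CDK4 (chr12:58141510-58149796, minus strand), which shares the D-type cyclins with CDK6, measured 106.7 and 113.1 FPKM in siControl and 127.3 and 116.3 in siUPF1. Both depleted libraries lay above both controls, but the log2 fold change of 0.15 had an interval of -0.08 to 0.38 and a limma adjusted p of 0.403. It was 0.08 without siUPF1 replicate 1 and 0.21 without siUPF1 replicate 2. CDK4 per CDK6 was 24.2 and 25.5 in the siControl libraries and 34.8 and 35.2 in the siUPF1 libraries, without overlap, and the exact permutation p was the smallest possible, 0.333.

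CDK2 (chr12:56360565-56366573, plus strand), the kinase of cyclin E, measured 27.0 and 29.8 FPKM in siControl and 27.2 and 23.2 in siUPF1. The groups overlapped (log2 fold change -0.17, interval -0.43 to 0.10, limma adjusted p = 0.405). The value was -0.28 without siUPF1 replicate 1 and -0.06 without siUPF1 replicate 2. CCNE1 per CDK2 was 0.210 and 0.228 in the siControl libraries and 0.294 and 0.344 in the siUPF1 libraries, again without overlap at the smallest exact permutation p of 0.333.

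CDKN1B (chr12:12838432-12875303, plus strand), which encodes p27, measured 19.3 and 22.6 FPKM in siControl and 20.0 and 17.7 in siUPF1. One depleted library lay between the controls and the other below them. The log2 fold change was -0.14, with an interval of -0.41 to 0.12 and a limma adjusted p of 0.473. It was -0.25 without siControl replicate 1 and -0.04 without siControl replicate 2. The upper bound of the interval, 0.12, rests on 2 libraries per group and is not a firm limit on a rise. CCND1 per CDKN1B, the cyclin over the inhibitor, was 3.67 and 3.20 in siControl and 4.54 and 5.65 in siUPF1, which did not overlap. CCNE1 per CDKN1B was 0.293 and 0.300 against 0.401 and 0.450. Each ratio had the smallest exact permutation p, 0.333.

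RB1 (chr13:48877880-49173572, plus strand), the repressor of E2F, measured 8.82 and 9.65 FPKM in siControl and 8.96 and 6.15 in siUPF1. Only siUPF1 replicate 2 lay below the controls. The log2 fold change of -0.28 was as large as that of CDK6 on this scale but had a wider interval, -0.65 to 0.10 (limma adjusted p = 0.344). By mean FPKM the fold was 0.82 for RB1 and 0.79 for CDK6. The log2 fold change of RB1 was -0.52 without siUPF1 replicate 1 and -0.04 without siUPF1 replicate 2, so 1 library decided its size. That library also stood apart over all genes: its correlations across genes with the 2 siControl libraries, 0.986 and 0.985, were below those of siUPF1 replicate 1, 0.992 and 0.993. The depletion groups were not cleanly apart either. Across genes, siUPF1 replicate 1 correlated more with the siControl libraries (0.99245 and 0.99346) than with siUPF1 replicate 2 (0.99163).

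E2F1 (chr20:32263283-32274191, minus strand), the activator released by RB1, measured 30.0 and 32.2 FPKM in siControl and 31.5 and 35.8 in siUPF1. The groups overlapped, and the log2 fold change of 0.11 had an interval of -0.14 to 0.35 (limma adjusted p = 0.557). It was 0.20 without siUPF1 replicate 1 and 0.02 without siUPF1 replicate 2. E2F1 is also a target of the E2F family. A stretch of its promoter is shown because 2 of the searched E2F sites fall in it, the first bases 33 and 20 bases upstream of the annotated start. It is placed at chr20:32274199-32274228 on GRCh37 and read on the minus strand, from RefSeq's GRCh38.p14 promoter table, with the sites in capitals.
E2F1 promoter: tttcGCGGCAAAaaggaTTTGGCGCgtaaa

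**Figure D2:**
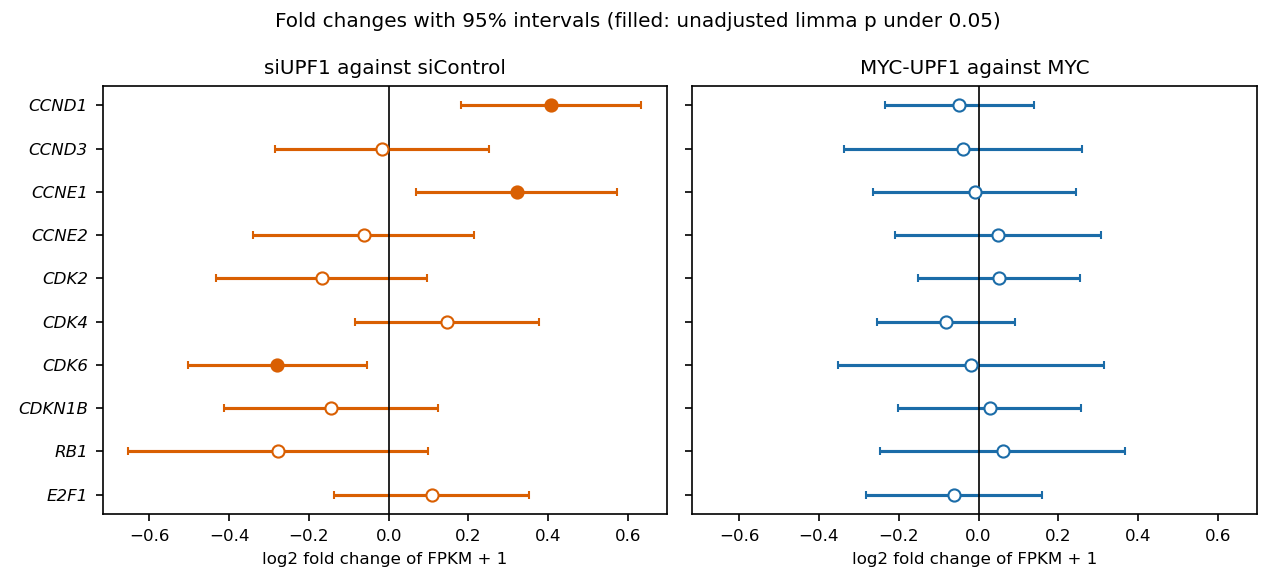
Log2 fold change of FPKM + 1 (x axis) of the 10 genes (y axis) in siUPF1 against siControl (left) and MYC-UPF1 against MYC (right), with 95% limma intervals. Filled points have an unadjusted limma p under 0.05: CCND1 and CCNE1 on the right of 0 and CDK6 on the left of it after depletion, and none after overexpression.

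After UPF1 overexpression, no change in the 10 genes was past either threshold. None of the 10 genes had an unadjusted p under 0.05, against 0.619% of all genes tested that were higher and 0.807% that were lower, and the share with an adjusted p under 0.05 was 0.00755%, which is UPF1 itself. The log2 fold changes ran from -0.08 for CDK4 to 0.06 for RB1, with a median of -0.01 for the 10 genes and for all genes tested. CDK2 lay higher in both MYC-UPF1 libraries than in both controls (8.88% of all genes did) and CDK4 lower in both (11.8% of all genes). All 10 adjusted p-values were 1.00.

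The values behind these small changes were as follows. The cyclin CCND1 measured 60.8 and 66.2 FPKM in MYC and 61.6 and 61.0 in MYC-UPF1, with a log2 fold change of -0.05 and an interval of -0.23 to 0.14. CCNE1 measured 7.16 and 7.23 FPKM in MYC and 7.31 and 6.97 in MYC-UPF1, and its interval was -0.26 to 0.25. For both cyclins the groups overlapped, and for CCND1 the upper bound of 0.14 was below the lower bound of 0.18 after depletion; the difference between the comparisons was not tested. CCND3 measured 2.35 and 2.76 FPKM in MYC and 2.73 and 2.20 in MYC-UPF1. CCNE2 measured 1.01 and 0.732 FPKM in MYC and 0.873 and 0.988 in MYC-UPF1.

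Of the kinases, CDK4 measured 111.1 and 111.8 FPKM in MYC and 109.2 and 101.4 in MYC-UPF1, with an interval of -0.25 to 0.09. CDK2 measured 26.6 and 26.9 FPKM in MYC and 28.5 and 27.1 in MYC-UPF1, with an interval of -0.15 to 0.25. CDK6 measured 3.54 and 2.87 FPKM in MYC and 2.71 and 3.62 in MYC-UPF1. The CDK6 groups overlapped fully, and its interval of -0.35 to 0.31 is wide enough to hold a change of the size seen after depletion. CCNE1 per CDK2 was the 1 ratio of 9 that did not overlap between the groups. It was 0.269 in each MYC library and 0.256 and 0.258 in the MYC-UPF1 libraries, the opposite direction to that after depletion. The exact permutation p was 0.333, the smallest possible, so 2 libraries against 2 often separate like this without a difference. After depletion all 9 ratios were without overlap. They reuse the same genes, CCND1, CDK4, CCNE1 and CDKN1B among them, so they are not 9 separate observations. Of single genes, 37.5% lay above both controls after depletion and 18.5% below both. The share among other gene pairs was not computed, so the count is not read as a result about these genes.

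CDKN1B, the p27 gene, measured 17.2 and 16.9 FPKM in MYC and 16.5 and 18.3 in MYC-UPF1. The log2 fold change was 0.03 and the interval was -0.20 to 0.26. RB1 measured 6.25 and 5.29 FPKM in MYC and 5.48 and 6.65 in MYC-UPF1, with an interval of -0.25 to 0.37. E2F1 measured 30.0 and 34.7 FPKM in MYC and 31.0 and 30.8 in MYC-UPF1, with an interval of -0.28 to 0.16. In all 3 genes the MYC-UPF1 values overlapped those of the controls. These groups were also mixed over all genes: across genes, MYC replicate 1 correlated at 0.997 with MYC-UPF1 replicate 2, above the 0.994 between the MYC replicates.

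The 10 transcripts differed widely in composition. Over all genes, fold changes followed transcript GC content: when genes were split by GC content into 10 bins of about equal size, the median log2 fold change went from -0.11 in the lowest bin to 0.26 in the highest after depletion, and from 0.02 to -0.08 after overexpression. CCNE2 and RB1, at 34.6% and 37.1% GC, lay in the lowest bin, CDK6 at 39.7% in the next, and E2F1 and CCND3, at 61.6% and 60.0%, near the upper end. CCND1 and CCNE1 were near the middle, at 50.3% and 51.7%, where the median gene had log2 fold changes of 0.07 and 0.11.

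With each library's trend over GC content and length removed, CCND1 stood at 0.37 (standard error 0.08, limma adjusted p = 0.0524) and CCNE1 at 0.28 (limma adjusted p = 0.122) after depletion. CDK6 moved to -0.21 (limma adjusted p = 0.161), and all 3 stayed past the unadjusted threshold. RB1 moved from -0.28 to -0.13 and CCND3 from -0.02 to -0.17. E2F1 changed sign from 0.11 to -0.08 and CCNE2 from -0.06 to 0.14. None of these passed the unadjusted threshold. The source of the trend was not tested.

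**Figure D3:**
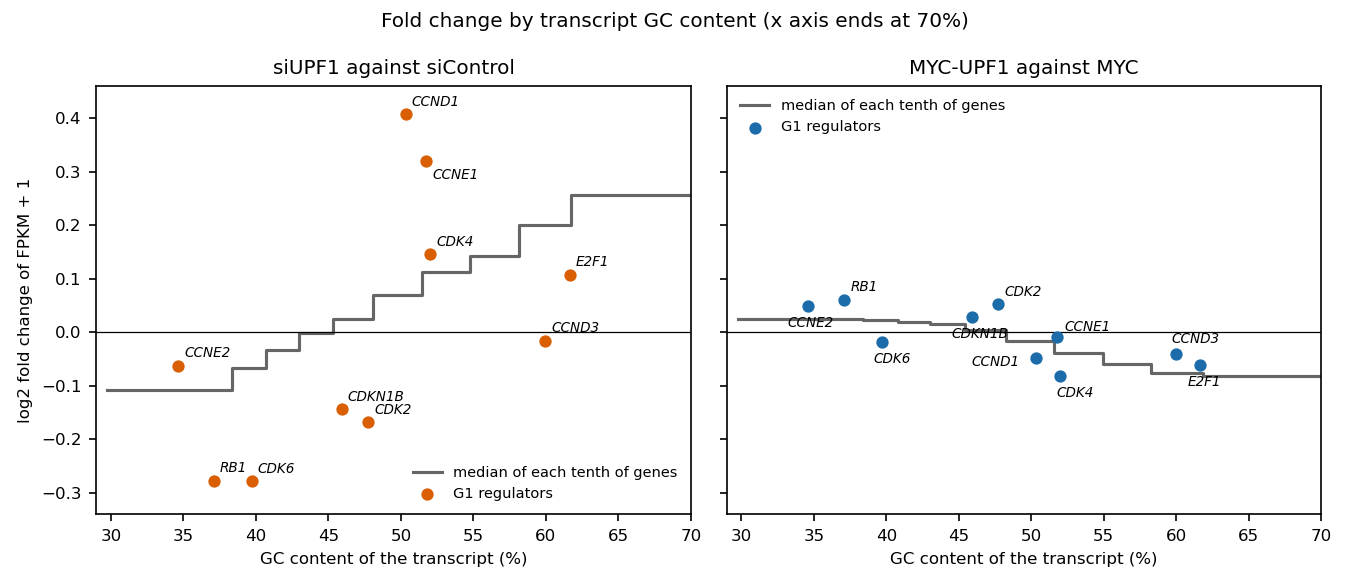
Log2 fold change of FPKM + 1 (y axis) of the 10 genes against the GC content of their transcripts (x axis, percent) after UPF1 depletion (left) and overexpression (right). The grey steps are medians of 10 bins of all genes with a known GC content. After depletion CCND1, CCNE1, CCNE2 and CDK4 lie above the step at their GC content. CCND3, CDK2, CDK6, CDKN1B, RB1 and E2F1 lie below it.

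Since UPF1 acts in NMD, the annotation of the 10 genes was read for transcripts of the type NMD degrades. In GENCODE v44 on GRCh37, 4 of the 10 genes had at least 1 such transcript: CCNE2, CDK2 and CDK4 had 2 each and RB1 had 1. Of 13196 listed protein-coding genes, 46.1% had one. CCND1, CCNE1 and CDK6, the 3 genes past the unadjusted threshold after depletion, had none. A long 3′ UTR or an exon junction after the stop codon are other known features of NMD targets. CDK6 and CCND1 had the longest 3′ UTRs of the 10 canonical transcripts, 10222 and 3195 bases. Their log2 fold changes after depletion were -0.28 and 0.41. CDKN1B was the 1 gene with its 3′ UTR split over 2 exons, and the distance of that junction from the stop codon was not measured. Whether any of these features bears on the changes was not tested. FPKM per gene sums all transcripts, so levels of single transcripts were not analysed here.

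The exons of CDK4 shared 44.2% of their bases with TSPAN31 on the opposite strand, those of CCNE2 37.05% with INTS8 and those of CCND1 10.4% with LTO1. Those of CDK2 shared 14.5% with ENSG00000258554, also on the opposite strand, which was not among the genes listed. The library kit marks strand, but whether strand was used in assembly is not given in the sources used here, and without it the reads of such a pair of genes cannot be told apart.

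The other genes of the pathway were read from lists by role, and their counts stand against the same shares of all genes tested: 16% higher and 5.51% lower at the unadjusted threshold, 37.5% above both controls and 18.5% below both. Of the 6 other CDK inhibitors, 2 were higher after depletion at the unadjusted threshold and none was lower, and 5 of 6 lay above both controls. The median log2 fold change was 0.16, and 0.11 with the GC and length trend removed. CDKN1C, which encodes p57, the close relative of p27, measured 4.42 and 4.40 FPKM in siControl and 8.33 and 9.23 in siUPF1. It rose 1.99-fold (log2 fold change 0.85, standard error 0.10, limma adjusted p = 0.0579), more than any of the 10 genes and just short of the adjusted threshold. With the GC and length trend removed it stood at 0.66 with a limma adjusted p of 0.0139. It was also past the unadjusted threshold in all 14 alternatives. CDKN2D, an inhibitor of CDK4 and CDK6, measured 2.55 and 2.67 FPKM in siControl and 3.21 and 3.23 in siUPF1, and its log2 fold change of 0.23 (limma adjusted p = 0.221) passed the unadjusted threshold in 3 of 13 alternatives and was 0.067 with the trend removed. CDKN1A (p21), a target of p53, measured 2.29 and 2.43 FPKM in siControl and 2.06 and 2.56 in siUPF1, which overlapped. Its value is named although it passed no threshold, because it is the third member of the p27 family.

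Of 7 tested genes in the list of other cyclins, kinases and phosphatases, 1 was lower at the unadjusted threshold and none was higher, all 7 log2 fold changes were negative, and 5 genes lay below both controls. The median was -0.17, and with the GC and length trend removed 6 of 7 were negative with a median of -0.08. CCNA2, the S phase cyclin that follows cyclin E on CDK2, measured 17.1 and 18.0 FPKM in siControl and 15.6 and 13.0 in siUPF1 (log2 fold change -0.29, standard error 0.11, limma adjusted p = 0.210).

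Among 11 relatives and partners of RB1 and E2F1, 1 was higher and 1 lower at the unadjusted threshold, and the median was -0.10. E2F2, a second activator of the E2F family, measured 2.31 and 2.25 FPKM in siControl and 2.99 and 3.36 in siUPF1 (log2 fold change 0.35, limma adjusted p = 0.134). TFDP1, the subunit with which E2F proteins bind DNA, measured 35.4 and 37.6 FPKM in siControl and 31.7 and 29.5 in siUPF1 (log2 fold change -0.25, limma adjusted p = 0.206). These partners of 1 complex thus had opposite signs. Of 8 ubiquitin ligase genes that act on p27 and G1 cyclins, 1 was higher. CKS1B, the cofactor that lets the ligase recognise phosphorylated p27, measured 132.6 and 139.6 FPKM in siControl and 182.1 and 163.4 in siUPF1 (log2 fold change 0.34, standard error 0.10, limma adjusted p = 0.141).

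Of 20 S phase genes under E2F control, 3 were higher and 1 was lower at the unadjusted threshold, 8 lay above both controls and 5 below them, and the median of 0.07 was close to the 0.06 of all genes. These counts are near the shares of all genes. UHRF1, which carries DNA methylation through replication, measured 15.3 and 16.1 FPKM in siControl and 20.8 and 22.3 in siUPF1 (log2 fold change 0.43, standard error 0.09, limma adjusted p = 0.0876). RPA2, a subunit of the single-strand DNA binding protein, had a log2 fold change of 0.30 and MCM5, of the replicative helicase, 0.27. With the GC and length trend removed MCM5 stood at 0.15 and passed no threshold. RRM2, the regulated subunit of ribonucleotide reductase, measured 76.7 and 78.8 FPKM in siControl and 68.2 and 55.5 in siUPF1, a log2 fold change of -0.33. Of 10 genes of mitosis, none passed in either direction, and the median was -0.10. With each library left out in turn, CDKN1C and UHRF1 kept their calls. CCNA2 (-0.41 to -0.16), CDKN2D (0.20 to 0.25), MCM5 (0.19 to 0.35), RRM2 (-0.48 to -0.19) and TFDP1 (-0.30 to -0.20) kept their signs but passed no threshold without either siControl library or without siUPF1 replicate 2. The calls of CKS1B (0.26 to 0.42) and RPA2 (0.25 to 0.35) were lost without either siControl library, and that of E2F2 (0.28 to 0.41) without siControl replicate 2. No gene of these 6 lists had an adjusted limma p under 0.05 after depletion in the fit reported here. Under the alternatives that kept all libraries, CDKN1C passed it with the GC and length trend removed (limma adjusted p = 0.0139). CDKN1C also passed it in a single fit of all 8 libraries (limma adjusted p = 0.0132) and with a crossed pairing (limma adjusted p = 0.0365). At a minimum of 5 FPKM its limma adjusted p was 0.00601, but its siControl mean of 4.41 FPKM lay under that minimum. It entered that fit only through its siUPF1 mean of 8.78 FPKM, so that pass adds no support. CKS1B passed the adjusted threshold with the trend removed (limma adjusted p = 0.0433) and UHRF1 at the minimum of 5 FPKM (limma adjusted p = 0.0445). Adjusted calls with a library left out are not counted, because the number of calls over all genes also moved with the library taken out. After overexpression none of the tested genes of the 6 lists passed the unadjusted threshold.

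**Figure D4:**
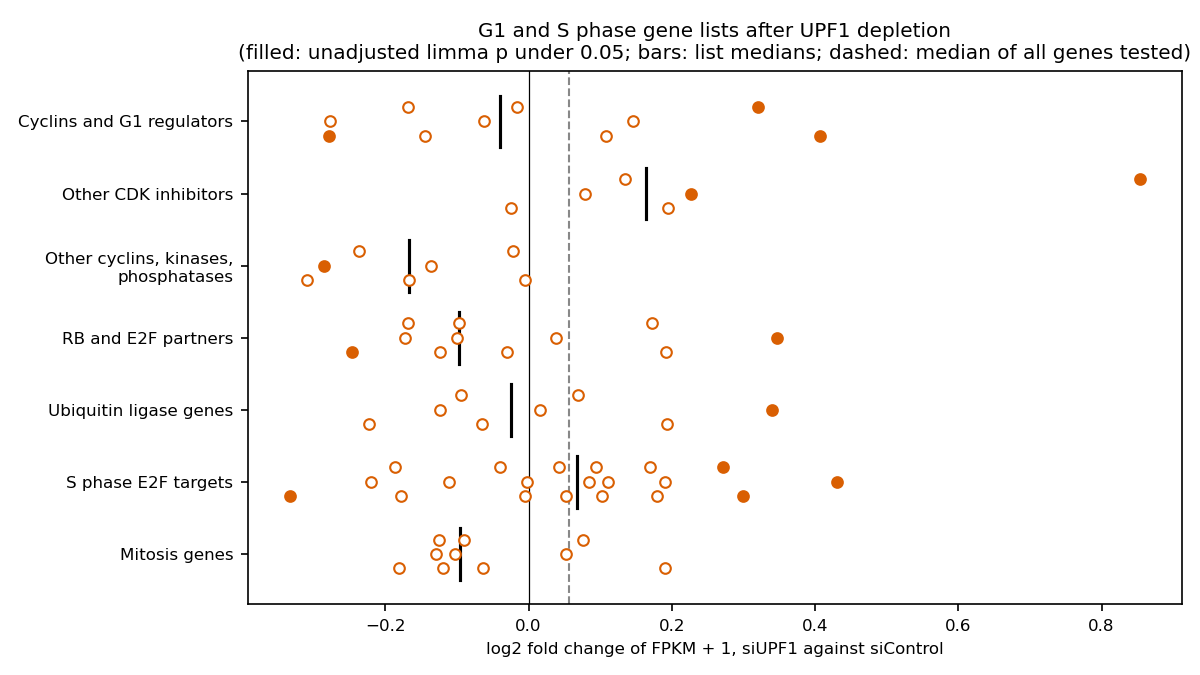
Log2 fold change of FPKM + 1 in siUPF1 against siControl (x axis) of each tested gene in 7 lists (y axis). Filled points have an unadjusted limma p under 0.05, bars are list medians and the dashed line is the median of all genes tested, 0.06. CDKN1C lies furthest to the right at 0.85, and all 7 points of the other cyclins, kinases and phosphatases lie left of 0.

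The E2F sites searched were TTTCCCGC, TTTCGCGC, TTTGCCGC and TTTGGCGC on either strand, in windows from 250 bases before to 50 bases after each RefSeq start. They occurred in 3.31% of 35116 windows. Of the 10 windows found for the G1 regulators (7 of the 10 genes matched, and CCND1, CCNE2 and CDK2 did not), 1 held a site, that of E2F1 printed with its values. Among the S phase genes 13 of 26 windows held one, among the RB1 and E2F relatives 4 of 13, and among the CDK inhibitors 0 of 8. The sequences around the sites of E2F2, TFDP1 and UHRF1 are shown because these genes passed the unadjusted threshold after depletion. Those of E2F2 (chr1:23857749-23857778, minus strand), TFDP1 (chr13:114238937-114238966, plus strand) and UHRF1 (chr19:4909488-4909517 and chr19:4909985-4910014, plus strand, at 2 start sites) are placed on GRCh37, with the sites in capitals.
E2F2 promoter: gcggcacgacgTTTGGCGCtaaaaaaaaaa
TFDP1 promoter: gggcgccgaagGCGCGAAAaggcgcgcagg
UHRF1 promoter, first start site: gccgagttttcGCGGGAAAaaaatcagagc
UHRF1 promoter, other start site: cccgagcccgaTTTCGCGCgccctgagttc
E2F2 and TFDP1 both hold a site and had opposite signs after depletion, and E2F1, with 2 sites, did not pass the threshold. CDKN1C, RPA2 and MCM5, which also passed it, had no window to search. CCNE1, CDK6, CDKN2D, CCNA2, CKS1B and RRM2 passed it too, and their windows held no site. Whether such sites bear on the changes was not tested.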

How the data were processed

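The authors trimmed reads with Trimmomatic 0.38, aligned them to hg19 with HISAT2 2.1.0, and used StringTie 1.3.4d with an NCBI annotation to obtain the deposited gene-level FPKM. The submitters' notes also list mm10, and no role for it is given. The mRNA libraries were prepared from total RNA with a stranded kit. All 17076 genes were above 0 in all 8 libraries. FPKM holds no read number, so depth and counting error are unknown.

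Each treated group was tested against its control with limma 3.58.1 in R 4.3.3 (lmFit, eBayes with a mean-variance trend, two-sided), after a log2(FPKM + 1) transform, wherever the 4 libraries averaged 0.5 FPKM or more. The paper's threshold of 0.05 names no adjustment, so unadjusted and Benjamini-Hochberg adjusted p-values were read. The procedure was tested on simulated data. Alternatives were a pseudocount of 0.1, no minimum or a minimum of 5 FPKM, quantile normalization, median centring, a loess correction of each library for transcript GC and length (span 0.5, for the 92.2% of genes with a transcript), all 8 libraries in a single fit, a replicate block, a crossed pairing, no trend in eBayes, and each library left out. Ratios were tested by exact permutation. Positions are from GENCODE v44 lifted to GRCh37, and promoter sequences from RefSeq. Plots were drawn with matplotlib 3.10.9 in Python 3.11.15.

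Named were all 10 regulators, UPF1, up to 4 genes per list and comparison with an unadjusted p under 0.05 and both treated libraries beyond both controls, by size of change, and the 3 genes most correlated with CCND1, CDKN1B and E2F1. CDKN1A was named after its values were seen. The members and lists were chosen with earlier results of these data known.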

Additional observations from a re-analysis of the deposited data

How the results depend on the processing

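Depletion called 3 of the 10 genes at an unadjusted limma p under 0.05, and 1 to 6 when a library was left out: CCND1 alone without siControl replicate 1, and CCND1, CCNE1, CDK2, CDK6, CDKN1B and RB1 without siUPF1 replicate 1. At an adjusted p under 0.05 the count was 0, 1 (CCND1) with all 8 libraries in a single fit, and 0 to 5 with a library left out: CCND1, CCNE1, CDK2, CDK6 and RB1 without siUPF1 replicate 1, and CCND1 and CCNE1 without siUPF1 replicate 2. A lone library was assumed to vary like the other group. Over all genes, unadjusted calls after depletion likewise became more numerous without siUPF1 replicate 1 and fewer without siControl replicate 1. The counts with a library left out therefore do not set the 10 genes apart from all genes. Overexpression called 0 of the 10 under all 14 alternatives. With the GC and length trend removed, signs turned for CCNE2 (0.14) and E2F1 (-0.075) after depletion and CCND3 (0.015), CCNE1 (0.0014) and E2F1 (0.0081) after overexpression. Quantile normalization turned CKS1B (0.039), RRM2 (0.0090) and TFDP1 (0.0100) and median centring CKS1B (0.00575) after overexpression. With a library left out, values ran from -0.13 to 0.10 (CCND3) and -0.17 to 0.043 (CCNE2) after depletion. After overexpression they ran from -0.11 to 0.012 (CCND1), -0.15 to 0.071 (CCND3), -0.040 to 0.020 (CCNE1), -0.058 to 0.16 (CCNE2), -0.18 to 0.14 (CDK6), -0.046 to 0.10 (CDKN1B), -0.059 to 0.18 (RB1), -0.16 to 0.040 (E2F1), -0.072 to 0.19 (APOH), -0.12 to 0.0053 (CCNA2), -0.29 to 0.00018 (CDKN1C), -0.040 to 0.035 (CKS1B), -0.24 to 0.023 (E2F2), -0.097 to 0.049 (RRM2), -0.087 to 0.036 (TFDP1) and -0.30 to 0.092 (UHRF1). The cause was not tested.

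Same-numbered libraries deviated in opposite directions (r = -0.129 for depletion and -0.569 for overexpression), so the numbers were not taken as pairs. The replicate block left 3 of the 10 genes called at an unadjusted p after depletion and 0 after overexpression, and CCNA2, CDKN2D and TFDP1 lost their calls under it. The crossed pairing, chosen after seeing the data, gave 4 and 0. Of all genes called after depletion, 74.3% were higher, and 50.2% after quantile normalization and 55.8% after median centring. Depth is unknown, so counting error could not be given.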

Other observations

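The genes whose pattern over the 8 libraries was most like that of 3 of the regulators were read from 13105 genes, as Pearson's r of log2(FPKM + 1) after the mean of the 4 libraries of each comparison was taken out. For CCND1 they were LRRC3 (r = 0.999), QPRT (r = 0.998) and SLC16A3 (r = 0.997). QPRT, an enzyme of NAD synthesis, measured 65.8 and 68.5 FPKM in siControl and 88.4 and 102.5 in siUPF1, and SLC16A3, a lactate exporter, 11.7 and 12.2 against 16.9 and 19.3. For CDKN1B they were QTRT2 (r = 0.991), TAPT1 (r = 0.985) and PCOLCE2 (r = 0.982), none of which passed an unadjusted p of 0.05 in either comparison. For E2F1 they were RHOT2 (r = 0.998), LMNB2 (r = 0.991) and SFI1 (r = 0.990), of which likewise none passed. These are the highest of many values over 8 points that share controls and libraries, so they describe these libraries alone.

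Of the 12 hepatoma markers, APOH was lower after depletion at the unadjusted threshold, at 151.0 and 164.4 FPKM in siControl against 123.1 and 95.7 in siUPF1 (log2 fold change -0.53, limma adjusted p = 0.113). APOA2 was higher after overexpression at that threshold, by 0.16 on the log2 scale (limma adjusted p = 1.00).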
